A study of Homo sapiens with 8 samples.

Results

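The genes described here are those of the mitochondrial ribosomal proteins, taken as every gene on the array table whose symbol starts with MRPL (large subunit) or MRPS (small subunit), with 1 probe set per gene, the one with the highest mean over the 8 arrays. There were 77 such genes among 18239 in all: 48 protein genes of the MRPL series, 28 of the MRPS series and the antisense RNA MRPL20-AS1, which has an MRPL symbol but encodes no ribosomal protein and is described apart. All 77 passed the filter on low values, which 13002 of the 18239 genes passed (a log2 value above 4.41 on at least 2 arrays), so no member was lost to it. MRPL53 was measured only by a probe set that names a further gene and was left out.

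Mitochondria hold their own ribosome, which translates the few messages encoded by mitochondrial DNA into core subunits of the respiratory chain and the ATP synthase. Its RNAs come from mitochondrial DNA, but all its proteins are nuclear-encoded, made in the cytosol and imported. Some have bacterial counterparts, since the organelle descends from a bacterium, and others exist only in mitochondria. Tetracyclines such as doxycycline bind bacterial small subunits and can also slow mitochondrial translation, so cells that receive doxycycline to switch on a transgene receive a drug with a known mitochondrial target.

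Total RNA of 2 brain-metastatic derivatives of human breast cancer cell lines was measured on 8 single-colour Affymetrix arrays, 2 per group. The groups were 231BrM with doxycycline, 231BrM control, SKBrM3 with doxycycline and SKBrM3 control, all grown in DMEM with 10% serum. The treatment was 100 ng doxycycline, with no volume in the labels, for 48 h, and in both lines it induced a short hairpin against MET, a receptor tyrosine kinase. 231BrM is known as a derivative of the mesenchymal-like line MDA-MB-231, and SKBrM3 as one of SK-BR-3, a luminal line with amplified ERBB2. No group received doxycycline without the hairpin, so what the drug does and what the hairpin does cannot be told apart in any doxycycline comparison below. Values are on a log2 scale after RMA, a procedure that makes the distributions of all arrays match, which hides any change in the total RNA of a cell. A difference of 1 is a 2-fold difference.

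These 5 promoters are shown because they belong to members on which the results turn, and together they show the motif matches reported further on. MRPS21 had the largest difference between the lines, MRPL36 and MRPL51 were also lower in 231BrM, MRPL20 was higher in 231BrM, and MRPS18C had one of the highest doxycycline values in 231BrM. Each is the 250 bases before the RefSeq transcription start (GRCh38.p14), 5′ to 3′ on the strand of the gene, with matches to the searched motifs in capitals; MRPS21 holds none.
MRPS21, chr1:150293611-150293860, + strand: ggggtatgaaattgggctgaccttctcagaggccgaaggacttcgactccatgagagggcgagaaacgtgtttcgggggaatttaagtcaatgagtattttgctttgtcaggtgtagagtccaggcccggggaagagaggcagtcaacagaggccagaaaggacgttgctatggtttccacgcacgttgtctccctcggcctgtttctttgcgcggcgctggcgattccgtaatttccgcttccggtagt
MRPL36, chr5:1799838-1800087, - strand: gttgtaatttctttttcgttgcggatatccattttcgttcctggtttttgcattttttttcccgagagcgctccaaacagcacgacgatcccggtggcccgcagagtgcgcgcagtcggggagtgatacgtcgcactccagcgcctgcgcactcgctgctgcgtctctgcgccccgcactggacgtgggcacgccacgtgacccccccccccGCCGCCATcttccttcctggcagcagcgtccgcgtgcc
MRPL51, chr12:6493263-6493512, - strand: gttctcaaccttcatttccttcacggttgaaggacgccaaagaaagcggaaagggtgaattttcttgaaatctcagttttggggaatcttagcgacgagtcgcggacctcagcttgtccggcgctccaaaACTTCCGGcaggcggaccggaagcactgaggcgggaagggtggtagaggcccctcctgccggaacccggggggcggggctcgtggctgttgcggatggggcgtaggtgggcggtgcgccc
MRPL20, chr1:1407294-1407543, - strand: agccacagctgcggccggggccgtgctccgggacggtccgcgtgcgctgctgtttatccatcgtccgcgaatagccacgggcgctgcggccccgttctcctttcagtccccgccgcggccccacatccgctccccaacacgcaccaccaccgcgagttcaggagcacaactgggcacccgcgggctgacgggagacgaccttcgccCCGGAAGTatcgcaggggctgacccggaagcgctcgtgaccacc
MRPS18C, chr4:83455808-83456057, + strand: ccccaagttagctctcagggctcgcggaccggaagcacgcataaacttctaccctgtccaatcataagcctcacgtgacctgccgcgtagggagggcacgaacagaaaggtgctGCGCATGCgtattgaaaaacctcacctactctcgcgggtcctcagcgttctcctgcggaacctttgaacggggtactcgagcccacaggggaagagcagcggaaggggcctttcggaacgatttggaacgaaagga

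The target of the hairpin was low on every doxycycline array. MET had log2 values of 5.85 and 5.35 on the doxycycline arrays of 231BrM, against 9.45 and 9.26 on its control arrays. It had 5.76 and 5.71 on the doxycycline arrays labelled SKBrM3, against 9.25 and 9.20 on the control arrays. The change was -3.76 in 231BrM and -3.50 in SKBrM3 (limma, adjusted p = 2.85e-05 and 1.32e-05).

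The SKBrM3 arrays did not carry the marker pattern of an ERBB2-amplified luminal line. ERBB2 was between 6.70 and 7.11 on them, against 6.76 to 6.89 on the 231BrM arrays, and the epithelial genes CDH1 and ESRP1 did not pass the filter. VIM, a mesenchymal intermediate filament, was between 12.72 and 12.78 on the SKBrM3 arrays, against 12.77 to 12.91 on the 231BrM arrays. Of 10 tested markers of SK-BR-3, 4 were called higher and 1 lower in 231BrM on the control arrays (limma). The shares of all genes were 19.8% and 19.9%. The differences of these markers ran from -0.31 to 2.59, with a median of 0.05. Of 7 markers of MDA-MB-231, 2 were called higher in 231BrM and 0 lower. Arrays of different lines still correlated less (r 0.957 to 0.964 over genes tested) than arrays of the same group (0.992 to 0.998), and KRT19 was higher by 2.59 on the 231BrM control arrays. SKBrM3 is therefore used here only as the name on the label. Markers of immune, endothelial, glial and stromal cells were low: 5 of 12, among them PTPRC and CDH5, did not pass the filter, and the mean of the other 7 was between 5.45 and 5.54 on every array.

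Doxycycline replicate 1 of 231BrM stood apart. Its actin control probe sets differed by 1.24 between the 3′ and the 5′ end of the transcript, against 0.46 to 0.59 on the other 7 arrays, and those of GAPDH by 0.33, against -0.02 to 0.09. A larger 3′ excess is a usual sign of shorter RNA or shorter labelled fragments. On that array 73 of the 77 members were higher than on replicate 2 of the same group, with a median difference of 0.20 (0.10 over all genes tested). Changes with doxycycline in 231BrM are therefore given with and without it. On the SKBrM3 arrays GAPDH differed between the ends by 0.09 and 0.08 with doxycycline, against -0.01 and -0.02 without. Actin differed there by 0.58 and 0.56 with doxycycline, against 0.52 and 0.56 without. The part of end signal in the SKBrM3 changes was not tested.

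**Figure D1:**
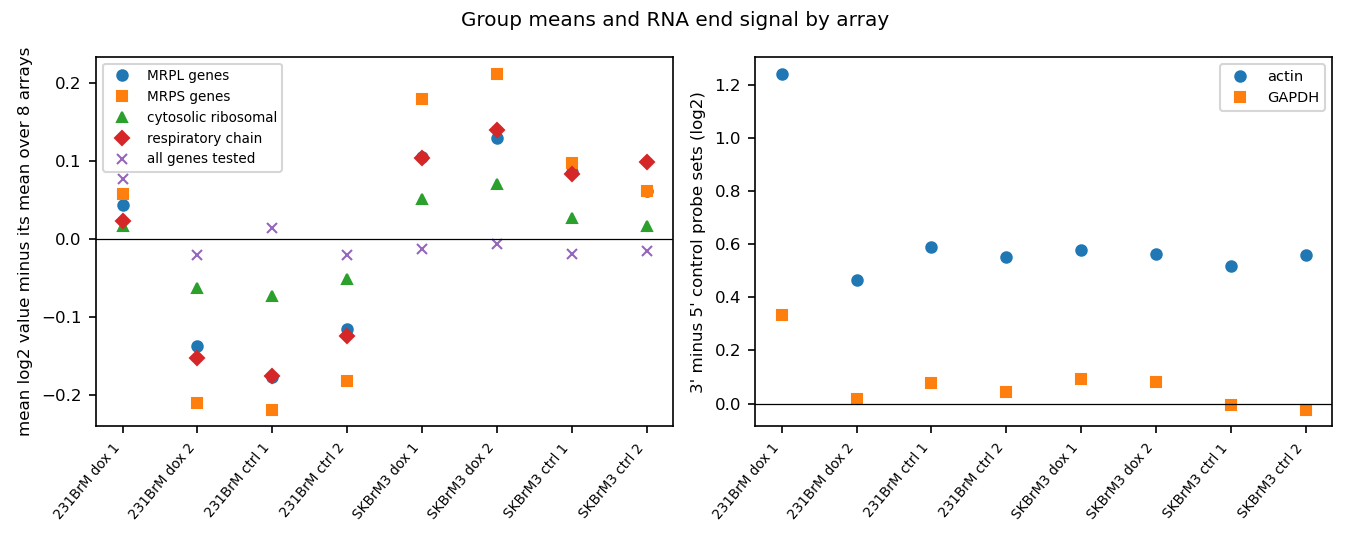
Left, mean log2 value of each gene group on each of the 8 arrays, minus that group's mean over the arrays; right, difference between 3′ and 5′ control probe sets of actin and GAPDH. Doxycycline replicate 1 of 231BrM has the highest actin difference, 1.24, and lies above the other 231BrM arrays for every gene group plotted.

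In 231BrM no member was called higher or lower with doxycycline (limma, adjusted p under 0.05 over all genes tested, either direction), where 0.162% of all genes tested were called. At an unadjusted p under 0.05, 7 members were higher (6.15% of all genes) and 0 were lower (3.74%). The median log2 change was 0.12 over the members and 0.05 over all genes, and the members ran from -0.23 to 0.37. Of the 77, 66 had a positive value (85.7%), as did 64.2% of all genes. The typical 95% interval of a member reached 0.22 to either side, so a shift the size of the median was not detectable gene by gene. In simulated data, where a gene varied alike on every array, a change of 0.3 was found in 5.88% of the genes given it. A change of 0.5 was found in 63.6%.

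The positive values in 231BrM rested largely on the array that stood apart, in the members and over all genes. Without it the median over all genes tested was -0.001, and 6440 of 13002 were positive. Without doxycycline replicate 1 the median was 0.02 over the members, 44 of 77 were positive, and again none was called (limma; 0.615% of all genes). Without replicate 2 instead, which leaves the array with the 3′ excess as the whole doxycycline group, the median was 0.20 and 18 members were called, all higher (12.7% of all genes). On replicate 2, 48 of the 77 members were at or below the higher of the 2 control arrays, a count not made over all genes. Both doxycycline arrays lay above both control arrays for 28 members (25.8% of all genes) and below them for 4 (12.1%). The part of RNA quality in these values was not tested.

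MRPL30, the large-subunit counterpart of bacterial L30, had the highest change in 231BrM. It had 9.44 and 9.04 on the doxycycline arrays, against 8.91 and 8.84 on the control arrays. The groups did not overlap, but replicate 1 was far above replicate 2. The change was 0.37 ± 0.12 (SE; limma, adjusted p = 0.415), or 0.17 without replicate 1, and 2 dimmer probe sets of MRPL30 gave -0.00 and -0.01.

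MRPS18C, one of the mitochondrial relatives of bacterial S18, had 10.20 and 9.74 on the doxycycline arrays, against 9.64 and 9.68 on the control arrays of 231BrM. Both lay above the controls, replicate 2 only narrowly, and the change of 0.31 ± 0.13 (limma, adjusted p = 0.5) was 0.08 without replicate 1. MRPL58, a peptidyl-tRNA hydrolase built into the large subunit that can release stalled chains, had 8.64 and 8.27 on the doxycycline arrays, against 8.16 and 8.16 on the control arrays. Both doxycycline arrays were above both control arrays, with a change of 0.29 ± 0.12 (limma, adjusted p = 0.491), or 0.11 without replicate 1. The next highest values were 0.26 for MRPL24, 0.25 for MRPL27 and 0.24 for MRPL55, all large-subunit genes, and none passed the test. Without replicate 1 these were 0.13, 0.08 and 0.05.

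At the low end stood MRPL10, which in the mitoribosome, as in bacteria, anchors the flexible stalk. It had 7.81 and 7.53 on the doxycycline arrays, against 7.92 and 7.89 on the control arrays of 231BrM, a change of -0.23 ± 0.11 (limma, adjusted p = 0.522), or -0.37 without replicate 1. Both doxycycline arrays lay below both controls. MRPL38 (-0.20, and -0.18 without replicate 1), MRPL4 (-0.17 and -0.05) and MRPL18 (-0.08 and -0.08) also had both doxycycline arrays below both controls. MRPS18A (-0.08 and -0.20) and MRPL20-AS1 (-0.05 and -0.10) overlapped their controls.

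On the SKBrM3 arrays none of the 77 members was called with doxycycline when all 8 arrays shared 1 estimate of the spread (limma, adjusted p under 0.05), where 3.43% of all genes were called. At an unadjusted p under 0.05, 10 members were higher (10.4% of all genes) and 4 lower (9.81%). The median change was 0.06 over the members and 0.01 over all genes. The members ran from -0.32 to 0.42, and 52 of them were positive (67.5%), as were 53.7% of all genes. With each array centred on its own median, the members' median was 0.01 and that of all genes -0.03. Both doxycycline arrays lay above both control arrays for 39 members, a pattern that 32.3% of all genes had, and below them for 14 (27.2%).

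**Figure D2:**
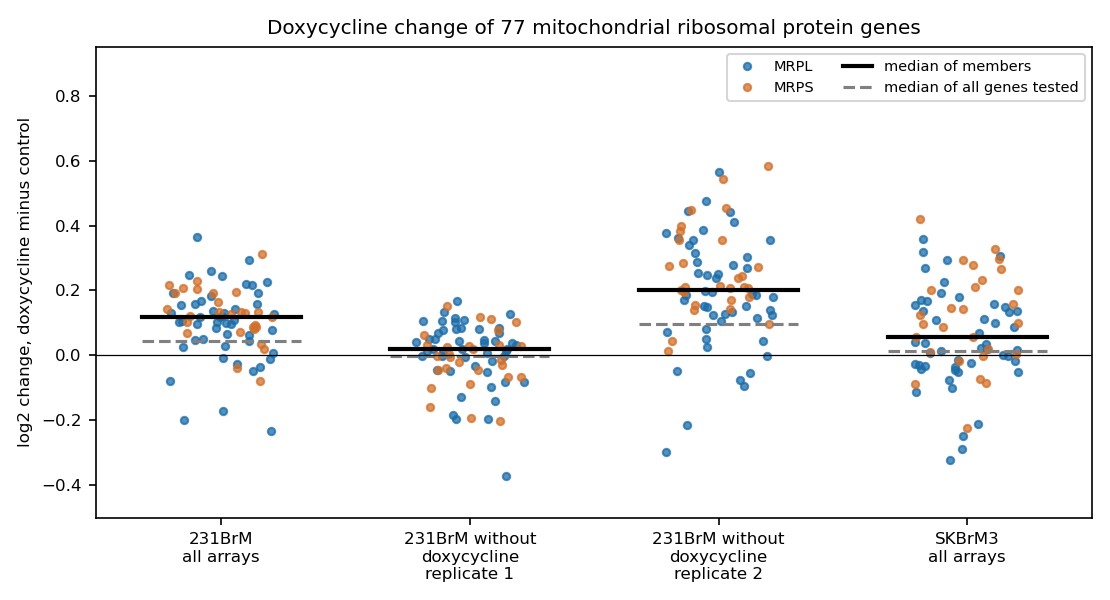
Log2 change with doxycycline, doxycycline minus control, of each of the 77 genes (points), in 231BrM with all arrays, in 231BrM without each doxycycline array in turn, and on the SKBrM3 arrays. The black bars are medians of the genes shown (0.12, 0.02, 0.20 and 0.06), and the dashed bars medians of all genes tested.

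The count on the SKBrM3 arrays depended on whether the 231BrM doxycycline pair entered the estimate of the spread. Leaving out either array of that pair removes its difference from the estimate and leaves the SKBrM3 values as they were, and the same 12 members were then called. Of these, 11 were higher, a call that 6.41% of all genes had, and 1 was lower (6.14%). Their adjusted p-values lay between 0.0191 and 0.0475, against 0.137 to 0.315 with all 8 arrays. With the 4 SKBrM3 arrays alone, 6 of the 12 were called and no other member was (9.6% of all genes): MRPL13, MRPL40, MRPL50, MRPS17, MRPS27 and MRPS33.

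Of the members called higher, 6 belong to the small subunit. MRPS28 had 7.67 and 7.64 on the doxycycline arrays labelled SKBrM3, against 7.41 and 7.07 on the control arrays, a change of 0.42 (limma, adjusted p = 0.315 with all arrays and 0.0338 without the 231BrM array that stood apart). MRPS27, a helical-repeat protein found only in mitochondria, had 9.10 and 9.12 with doxycycline, against 8.78 and 8.78 without. In both genes the groups were clear of each other. MRPS27 changed by 0.33 (adjusted p = 0.28 and 0.0222 in the same fits), and its other 3 probe sets gave 0.18, 0.21 and -0.02.

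MRPS17, MRPS9 and MRPS16 are counterparts of bacterial small-subunit proteins, and MRPS33 is mitochondrial only. MRPS17 had 8.84 and 8.90 with doxycycline, against 8.54 and 8.61 without. MRPS9 had 8.39 and 8.48 with doxycycline, against 8.10 and 8.18 without. MRPS16 had 9.64 and 9.60 with doxycycline, against 9.41 and 9.30 without. Each pair of groups was separated by more than the distance between its replicates, and the changes were 0.30, 0.29 and 0.26. MRPS33 had 9.15 and 9.17 with doxycycline, against 8.88 and 8.88 without, a change of 0.28 (limma, adjusted p = 0.207 with all arrays and 0.0269 without the array that stood apart). The probe sets of MRPS16 disagreed: 2 dimmer ones gave -0.09 and -0.10 on the SKBrM3 arrays, and in 231BrM its probe sets spread from -0.38 to 0.15, the only member whose doxycycline changes lay over 0.5 apart within a line.

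The large-subunit members called higher in that fit were MRPL2, MRPL23, MRPL13, MRPL40 and MRPL58. MRPL2, whose bacterial counterpart sits near the peptidyl transferase centre, had 7.96 and 7.73 with doxycycline, against 7.50 and 7.48 without. MRPL23, whose counterpart lines the exit of the peptide tunnel, had 9.39 and 9.45 with doxycycline, against 9.20 and 8.997 without. MRPL13 had 10.03 and 10.12 with doxycycline, against 9.80 and 9.74 without. In these genes both doxycycline arrays exceeded both controls, by changes of 0.36, 0.32 and 0.31, and a dimmer probe set of MRPL2 gave 0.60 and one of MRPL13 gave 0.27. MRPL40 changed by 0.29 and MRPL58 by 0.27.

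MRPL50 was the member called lower in that fit. It had 9.07 and 9.13 on the doxycycline arrays labelled SKBrM3, against 9.44 and 9.40 on the control arrays. Both doxycycline arrays were below both controls, and the change was -0.32 ± 0.11 (SE; limma, adjusted p = 0.142 with all arrays and 0.0191 without the 231BrM array that stood apart). In 231BrM its change was -0.04, or -0.20 without replicate 1 of the doxycycline pair. The next lowest members were MRPL10 (-0.29), MRPL39 (-0.25), MRPS35 (-0.22), MRPL20 (-0.21) and MRPL3 (-0.11), and none of these was called with all arrays or without that 1 array.

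**Figure D3:**
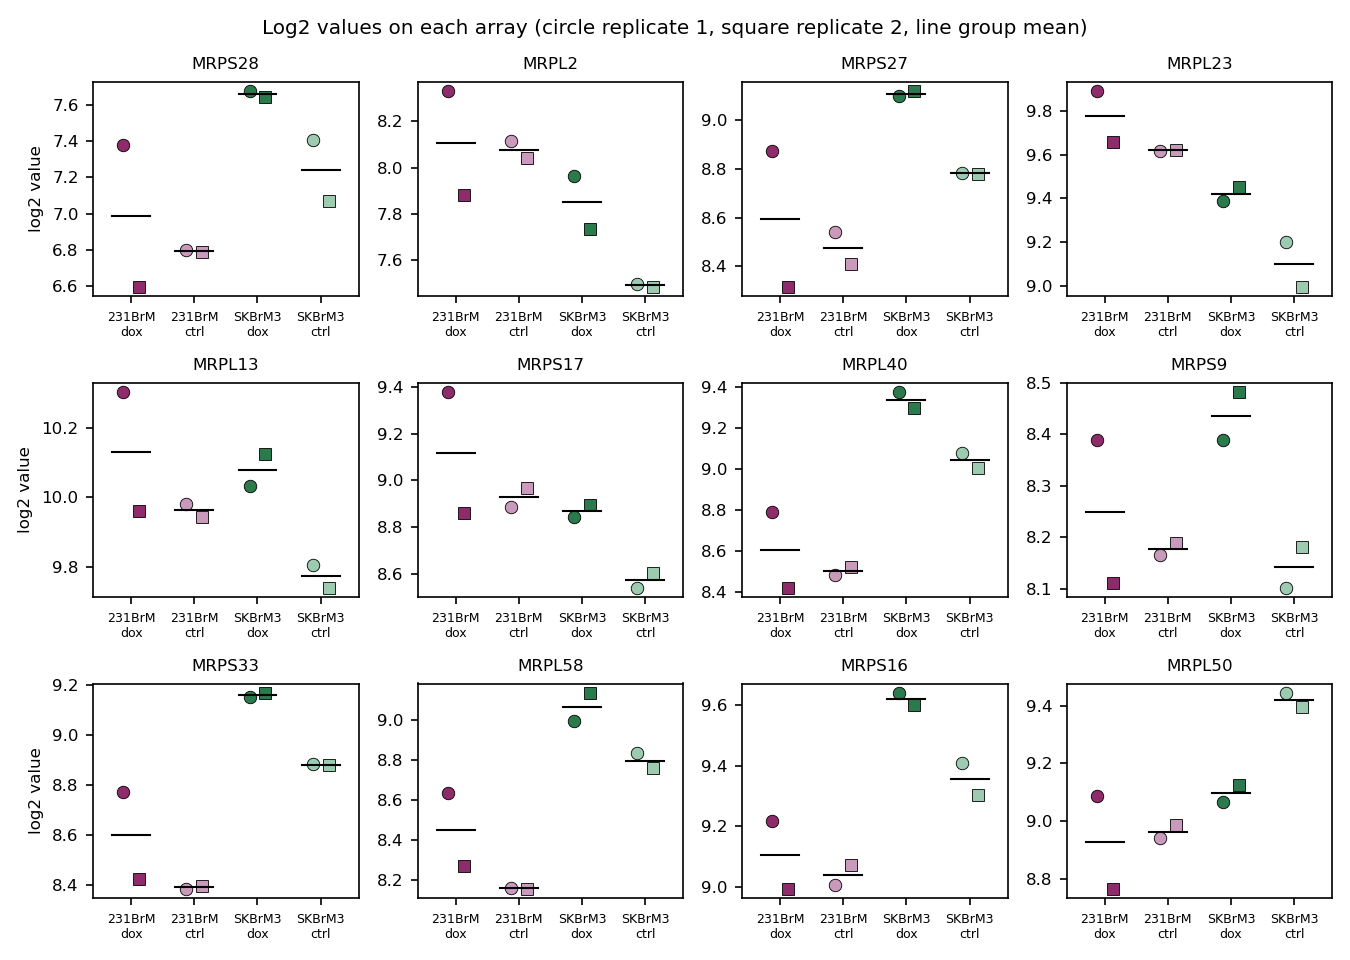
Log2 value on each of the 8 arrays of the 12 members called with doxycycline on the SKBrM3 arrays when a 231BrM doxycycline array was left out (circles replicate 1, squares replicate 2, bars group means; doxycycline groups stand left of their controls). The SKBrM3 groups are separated in every panel, while replicate 1 of the 231BrM doxycycline pair lies above replicate 2 in all 12.

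Averaged over both lines, no member was called (limma, adjusted p under 0.05; 3.04% of all genes). At an unadjusted p under 0.05, 17 were higher (11.7% of all genes) and 2 lower (7.28%); those 2 were MRPL10 and MRPL50. The median over members was 0.09, against 0.03 over all genes. Without replicate 1 of the 231BrM doxycycline pair, MRPL10 (-0.33, adjusted p = 0.0263) and MRPL50 (-0.26, adjusted p = 0.0275) were called lower and none was called higher (5.28% of all genes called). Without replicate 2 of that pair, which leaves the array that stood apart, 26 members were called, all higher (15.5% of all genes were called higher and 6.71% lower). MRPL10 had both doxycycline arrays below both controls in both lines. MRPS7, the counterpart of bacterial S7 in the head of the small subunit, had the smallest p of the average, with a change of 0.21 (limma, adjusted p = 0.101), or 0.18 without that replicate 1.

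MRPS7 had 9.42 and 9.29 on the doxycycline arrays of 231BrM, against 9.16 and 9.12 on its control arrays, and 9.61 and 9.68 on those labelled SKBrM3, against 9.48 and 9.41. It is one of 15 members with both doxycycline arrays above both controls in both lines (19.5%), a pattern that 9.48% of all genes had. A positive change in both lines was seen in 47 of 77 members (61%) and in 37.5% of all genes. The 2 comparisons share no arrays, but counts for both lines follow in large part from the share in each line. An excess over that was not tested. Without the 231BrM array that stood apart, a positive change in both lines was seen in 31 members (40.3%) and 26.7% of all genes. Related genes leaned the same way. With all arrays, 85.7% of members were positive in 231BrM and 67.5% on the SKBrM3 arrays, against 64.2% and 53.7% of all genes. Nuclear-encoded respiratory chain and ATP synthase subunits had 85.7% and 67.1%, and cytosolic ribosomal proteins 75.7% and 65.7%.

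A difference between the lines in the change with doxycycline was not found for any member. The difference, 231BrM change minus SKBrM3 change, was called for none of the 77 (limma, adjusted p under 0.05; 0.0231% of all genes), and none had an unadjusted p under 0.05 either (11.2% of all genes). Without replicate 2 of the 231BrM doxycycline pair, 1 member was called with a higher change in 231BrM, as were 2.14% of all genes. The smallest adjusted p with all arrays was 0.449, and a p that misses the threshold does not show that the lines respond alike. Large-subunit genes had a median change of 0.11 in 231BrM and 0.02 on the SKBrM3 arrays, and small-subunit genes 0.13 and 0.11; without the array that stood apart the 231BrM medians were 0.03 and -0.00.

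More members were called between the lines than with doxycycline. On the control arrays, 42 of the 77 members were called lower in 231BrM than in SKBrM3 (limma, adjusted p under 0.05; 19.9% of all genes were called lower) and 7 were called higher (19.8%). The median difference was -0.31 over the members and -0.05 over all genes, and the members ran from -1.20 to 0.59. Of the 49 called, 11 differed by over 1.5-fold and 3 by over 2-fold. Leaving out 1 array moved these counts together with those over all genes. Without 231BrM control replicate 1, 23 members were lower (12.6% of all genes) and 4 higher (13%). Without SKBrM3 control replicate 2, 26 were lower (12.3%) and 3 higher (14.1%), and without either 231BrM doxycycline array 49 were lower (26.2%) and 14 higher (24.4%). Of the 49 members called with all arrays, 22 were called whichever array was left out.

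**Figure D4:**
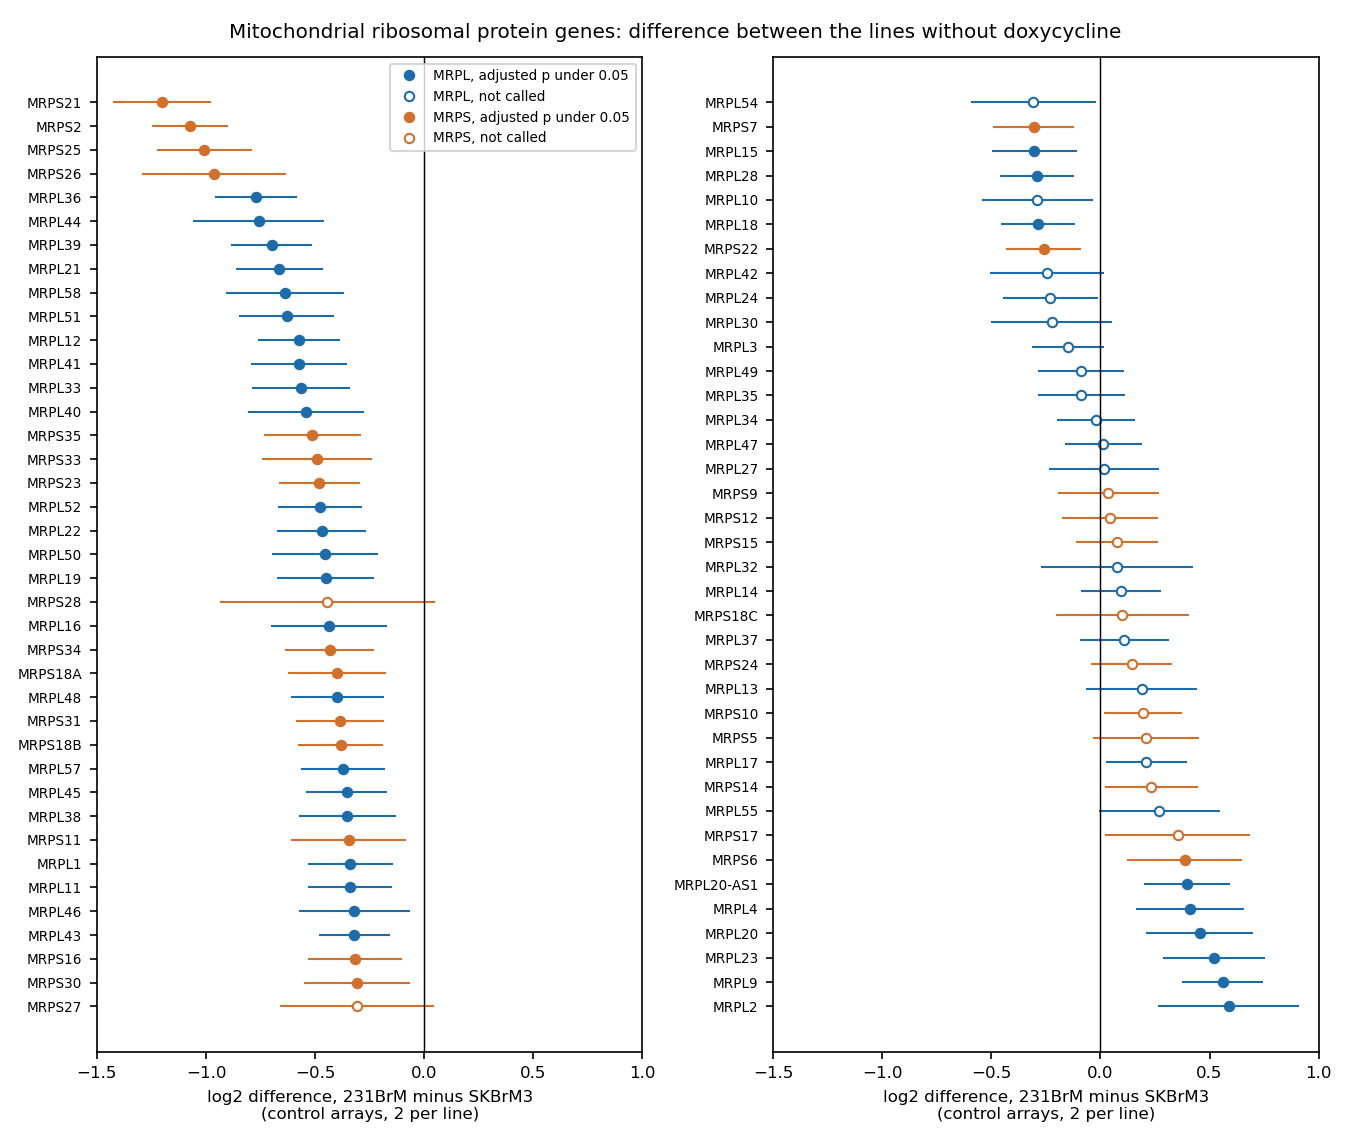
Log2 difference, 231BrM minus SKBrM3, on the control arrays for each of the 77 members, with 95% intervals of the limma fit; filled points are called at an adjusted p under 0.05, and MRPL20-AS1 is drawn in the colour of its MRPL symbol. The values run from -1.20 for MRPS21 to 0.59 for MRPL2, and 42 of the 49 filled points lie below 0.

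The 4 largest differences were all in small-subunit genes. MRPS21, the counterpart of bacterial S21, had 8.45 and 8.57 on the 231BrM control arrays, against 9.74 and 9.68 on those of SKBrM3. The groups were far apart, with a difference of -1.20 ± 0.10 (SE; limma, adjusted p = 3.85e-05), or 2.3-fold lower. Its other 3 probe sets gave -1.17, -1.22 and -1.30. MRPS2, which helps join head and body of the small subunit, had 8.77 and 8.72 in 231BrM, against 9.83 and 9.81 in SKBrM3, a difference of -1.07 ± 0.08 (adjusted p = 1.8e-05).

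MRPS25 and MRPS26 have no bacterial counterpart. MRPS25 had 8.28 and 8.41 in 231BrM, against 9.31 and 9.39 in SKBrM3, and MRPS26 had 8.90 and 8.74 in 231BrM, against 9.79 and 9.78 in SKBrM3. The arrays of the lines did not overlap, and the differences were -1.01 ± 0.10 and -0.96 ± 0.15 (limma, adjusted p = 8.08e-05 and 0.000995). The 4 dimmer probe sets of MRPS25 gave -0.44 to -0.71. MRPS23, also of the small subunit, differed by -0.48.

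Among large-subunit genes called lower, MRPL36, counterpart of the small bacterial protein L36, had 10.40 and 10.53 in 231BrM, against 11.21 and 11.26 in SKBrM3. Its difference was -0.77 ± 0.08 (limma, adjusted p = 0.000151). MRPL44, which has a fold like that of double-strand RNA nucleases, had 7.71 and 7.66 in 231BrM, against 8.47 and 8.42 in SKBrM3, a difference of -0.76 ± 0.13. MRPL39, which resembles a tRNA synthetase, had 8.81 and 8.84 in 231BrM, against 9.48 and 9.56 in SKBrM3. No 231BrM control array reached an SKBrM3 control array in these genes. MRPL39 differed by -0.70 and its other probe set by -0.63. Further values were -0.66 for MRPL21, -0.63 for MRPL51, -0.57 for MRPL41 and -0.57 for MRPL12, the stalk protein that pairs with MRPL10.

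The members called higher in 231BrM were 5 large-subunit genes, MRPS6 and MRPL20-AS1. MRPL9, counterpart of bacterial L9, had 9.87 and 9.90 in 231BrM, against 9.35 and 9.30 in SKBrM3, a difference of 0.56 ± 0.08 (limma, adjusted p = 0.000851). MRPL2 had 8.11 and 8.04 in 231BrM, against 7.50 and 7.48 in SKBrM3, a difference of 0.59 ± 0.14 (adjusted p = 0.0104). In both genes the lines were clear of each other on the control arrays. MRPL23 differed by 0.52, MRPL20 by 0.45, MRPL4 by 0.41, MRPL20-AS1 by 0.40 and MRPS6 by 0.39.

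Of these 7, only MRPL9 and MRPL23 were called whichever array was left out. MRPL2 lost its call without 231BrM replicate 1 and without either SKBrM3 replicate, and MRPL4 without any 1 of the 4 control arrays. MRPL20 did so without 231BrM replicate 2 (0.39) or SKBrM3 replicate 2 (0.34), MRPL20-AS1 without 231BrM replicate 2 (0.36), and MRPS6 without either 231BrM replicate or without SKBrM3 replicate 2 (0.27). The probe sets of MRPL20 disagreed, with -0.37 and 0.02 for the dimmer ones, and the mean of its probe sets differed by 0.03. Those of MRPL9 disagreed too, with 0.32 and -0.18 for the dimmer ones that passed the filter, the second near the filter level, and the mean of its probe sets differed by 0.20. In all, 39 members had at least 2 probe sets that passed the filter, and in 30 of them all shared the sign of the difference between the lines.

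The lines were also compared on the doxycycline arrays. On the doxycycline arrays 37 members were called lower in 231BrM (19.8% of all genes) and 9 higher (21.8%). Each of the 49 members called on the control arrays kept their sign there, and 38 were called on both, which is 77.6% of the calls on control arrays and 82.6% of those on doxycycline arrays. Of the 42 called lower, 39 had all 4 231BrM arrays below all 4 SKBrM3 arrays, and of the 7 called higher, 5 had all 4 above. The 49 were chosen by their calls on the control arrays, which enter these last counts. Shares over all genes were not computed for the kept signs, the shared calls or the separated arrays, so these are descriptions only. The control arrays of this comparison are also those of the doxycycline comparisons.

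Members of both subunits differed between the lines. Beside the counts below, 19.9% of all genes tested were called lower in 231BrM and 19.8% higher. Of 48 large-subunit genes, 26 were lower and 5 higher in 231BrM (median -0.30), and of 28 small-subunit genes, 16 were lower and 1 higher (median -0.31). By symbol number, 44 members carry the number of a bacterial ribosomal protein and 32 a higher one, given to proteins found in mitochondria. Of the 32, 23 were lower and 0 higher (limma), with a median of -0.39. At an unadjusted p under 0.05 these counts were 24 and 0, against 3325 and 3025 of all 13002 genes tested. Of the 44, 19 were lower and 6 higher, with a median of -0.19. The difference between these classes was not tested.

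Members of related pathways differed between the lines to varied extents. The shares of all genes tested that were called lower and higher in 231BrM were 19.9% and 19.8%. Nuclear-encoded respiratory chain and ATP synthase subunits had a median of -0.30, with 36 of 70 lower and 1 higher in 231BrM. Cytosolic ribosomal proteins had a median of -0.11, with 12 of 70 lower and 5 higher. Mitochondrial translation factors had a median of -0.29 (8 of 14 lower, 2 higher), and GFM1, a mitochondrial elongation factor, was lower by far: 8.30 and 8.29 on the 231BrM control arrays, against 9.67 and 9.61 on those of SKBrM3 (-1.35; limma, adjusted p = 4.22e-06). Assembly and rRNA-modifying factors had -0.29 (15 of 27 lower, 4 higher), and genes of mitochondrial transcription and DNA maintenance -0.31 (11 of 16 lower, 1 higher), among them TFAM, which packages mitochondrial DNA, at -0.84. Mitochondrial chaperones and proteases had -0.31 (10 of 16 lower, 1 higher), and aminoacyl-tRNA synthetases -0.09 (7 of 19 lower, 1 higher). Of the mitoribosomal proteins with other names, DAP3 (0.41) and GADD45GIP1 (0.25) were higher, and PTCD3 (-0.36) and CHCHD1 (-0.36) lower. Regulators of mitochondrial biogenesis had a median of -0.04, with PPRC1 lower (-0.25) and 1 of 9 higher.

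With doxycycline the medians of the same lists lay near 0. Respiratory chain subunits had medians of 0.09 in 231BrM and 0.04 on the SKBrM3 arrays, and without the 231BrM array that stood apart 0.01 in 231BrM. Cytosolic ribosomal proteins had 0.04 and 0.04 (0.01 in 231BrM without it), and translation factors 0.06 and 0.05 (0.00 without it). In 231BrM the only gene of these lists called was DDIT4, an inhibitor of mTORC1 that stress induces, at -1.14 (limma, adjusted p = 0.0243), or -1.04 without the array that stood apart, where the complex I subunit NDUFB2 was also called (-0.48, adjusted p = 0.0486). On the SKBrM3 arrays DDIT4 (-1.14), MTHFD2 (-0.53) and AFG3L2 (-0.52) were lower and RPL7 (0.54), a cytosolic ribosomal protein, was higher. Without the 231BrM array that stood apart, 23 of the 261 genes of these lists were called there (8.81%, against 12.5% of all genes), 12 higher and 11 lower. They included those 4 and the cytosolic ribosomal protein RPL35A (0.38), which was higher. Complex I subunits went both ways, with NDUFV1 (0.31) and NDUFS7 (0.24) higher and NDUFS1 (-0.30) and NDUFB2 (-0.41) lower. From the lists of translation factors, assembly factors and aminoacyl-tRNA synthetases, WARS2 (0.41), MTRES1 (0.35) and RPUSD3 (0.31) were higher. From the same lists GATC (-0.43), MTRF1L (-0.29) and MARS2 (-0.27) were lower. MTHFD2 is a mitochondrial folate enzyme that ATF4 induces. AFG3L2 is a subunit of the inner-membrane protease that matures MRPL32.

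AFG3L2 had 7.18 and 7.15 on the doxycycline arrays labelled SKBrM3, against 7.63 and 7.73 on the control arrays (limma, adjusted p = 0.0126). In 231BrM it had 7.36 and 7.39, against 7.77 and 7.67 (-0.34; limma, adjusted p = 0.247), or -0.32 without the array that stood apart. Its doxycycline arrays lay below its controls in both lines. MRPL32 itself had 8.65 and 8.81 with doxycycline, against 8.68 and 8.74 without, on the SKBrM3 arrays, and its groups overlapped in both lines. In the ATF4 branch of the mitochondrial stress response, 1 of 17 genes was called in 231BrM and 2 on the SKBrM3 arrays, all lower, and the medians were 0.01 and -0.05. Without the array that stood apart, 5 were called on the SKBrM3 arrays, the same 2 and DDIT3 (-0.50; limma, adjusted p = 0.00668) and PSAT1 (-0.26) lower and ATF5 (0.48; adjusted p = 0.0206) higher, and DDIT4 was again the one called in 231BrM. DDIT3 and ATF5 encode transcription factors of the stress response, and PSAT1 an enzyme of serine synthesis. ATF4 itself had changes of 0.09 and -0.18, neither called. No transcript encoded by mitochondrial DNA was found under its symbol on the table, so the products of mitochondrial translation were not analysed here.

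Neighbouring genes were set beside the members in the line comparison. For each member on the RefSeq gene order, the median difference of the 5 tested coding genes on either side was taken as a description of its surroundings. Over all 76 members with such surroundings that median lay below 0 for 57.9%, against 62.1% of all 12423 genes. Around the 42 members called lower in 231BrM it lay below 0 for 35 (83.3%). Around the 28 not called it lay below 0 for 8 (28.6%), and around the 6 called higher with a place in the order it lay below 0 for 1. Members and surroundings correlated at r = 0.49 over 76 genes, against r = 0.35 over all genes. Any set chosen as lower can therefore have lower surroundings, and other genes called lower were not set beside these members. MRPS21, the member with the largest difference, had surroundings with a median of 0.48, opposite in sign. MRPL36 had surroundings of -0.34, and MRPL4, which lies beside DNMT1, S1PR2 and ICAM1, had 0.46. Copy number was not measured here, and its part in these values was not tested.

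Promoters of 68 of the 76 protein genes were available, each from 250 bases before to 50 after the start. Letters of 3 motifs were searched on both strands: ATGGCGGC for YY1, CCGGAAGT for ETS factors and GCGCATGC for NRF1. No match to a motif overlapped a match to another in these promoters, though the NRF1 letters overlapped themselves in MRPL17. The YY1 letters were in 19 of the 68 promoters (27.9%), against 4.49% of 15843 protein-coding promoters. The ETS letters were in 14.7%, against 6.19%, and the NRF1 letters in 8.82%, against 4.26%. Of the 20 YY1 matches, 17 lay after the start, from 10 to 39 bases downstream, where ATG in these letters could also belong to a transcript's own start codon. That of MRPL36 lay at position -38 from the start, in the sequence shown at the beginning. At least 1 of the 3 was in 42.5% of the 40 promoters of members lower in 231BrM and in 45.8% of the 24 of members not called. A match is a description of the letters and not of binding.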

How the data were processed

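Total RNA of the 8 samples was measured on Affymetrix arrays. The authors deposited log2 values, 1 per probe set and array, made with RMA per the submitters' processing notes; version, chip definition and build were not given in the sources used here. Without scanner intensities, which were not analysed, the background under low values is unknown. Of 49386 probe sets, 45259 name 1 gene; a RefSeq table matched by gene ID gave current symbols for 45178 of them. The brightest probe set on average stood for each of 18239 genes, and 13002 genes above 4.41 (the 40th percentile) on at least 2 arrays were tested. Levels of different probe sets were not set against each other, so the planned naming of members with the highest and lowest mean was dropped.

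Group means over all 8 arrays came from limma 3.58.1 in R 4.3.3 (lmFit, then eBayes; 4 residual and 4.59 prior degrees of freedom). Two-sided p-values received the Benjamini-Hochberg adjustment across the 13002 genes, and calls were made below 0.05. Whether replicates are separate cultures is not in the labels: the p-values reflect only how these arrays vary, which may be technical, and the number of arrays limits the precision. Same-numbered arrays deviated together weakly (r 0.24 in 231BrM and -0.01 in SKBrM3) and were not treated as pairs. Members and lists were chosen with earlier results of these data known.

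Named members were up to 12 called per comparison by smallest p, the 6 highest and 6 lowest changes, and, from each companion list, genes called with doxycycline. MRPS6, MRPS7, MRPL32 and the SKBrM3 members called without a 231BrM array were chosen after their values were seen, as were the companion genes called in that fit, GFM1, TFAM, PPRC1 and the mitoribosomal proteins with other names. Alternatives were other filters, the mean of all probe sets, centring, array weights, a trended fit, separate lines, a replicate block and leaving out each array. Simulated data for 13002 genes gave each gene the same starting level and spread on all arrays, with no array standing apart. A change of 0.5 was recovered in 63.6% of changed genes in 231BrM and 69.7% in SKBrM3. A change of 1.0 was recovered in 98.5% in each, and 11 and 4 unchanged genes were called. Both lines had the same settings, so these figures differ by the random draw and do not measure the power in either line. Promoter sequences and gene order are from RefSeq (GRCh38.p14).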

Additional observations from a re-analysis of the deposited data

How the results depend on the processing

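Leaving out each array in turn moved the number of members called with doxycycline between 0 and 18 in 231BrM, 0 and 12 on the SKBrM3 arrays, 0 and 26 for the average and 0 and 1 for the difference between the lines. It moved the number called between the lines between 27 and 63, and the median change of the members in 231BrM between 0.0183 and 0.201. Where this left a group with 1 array, that array was assumed to vary like the other groups. On the SKBrM3 arrays 1 member was called after centring the arrays on their medians and 9 with array weights. With the 4 SKBrM3 arrays alone 6 members were called (7.79%), as were 9.6% of all genes, against 3.43% with all 8 arrays. The shares of all genes called moved with the array left out too, as given above. The counts in this section alone are therefore not a result about the members. For the average, 1 was called after centring, 1 with the mean of all probe sets and 1 with a trended, robust fit. With a replicate block 0 members were called in each doxycycline comparison and 47 between the lines; the labels do not pair the arrays. Other filters, centring and weights left between 47 and 62 members called between the lines. The line comparison on the doxycycline arrays and over both states was added after seeing the data, and gave 46 and 60.

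Leaving out doxycycline replicate 1 of 231BrM turned the sign of 24 of the 77 members' changes in that line, and the mean of all probe sets turned 11 there, 12 on the SKBrM3 arrays and 4 between the lines. Each of the other alternatives turned at most 12 in any of these comparisons, and no value that was called turned under any of them. Among the members named for their size or p in a comparison, 3 turned, all in 231BrM: MRPL18 (0.0298) and MRPL20-AS1 (0.0223) with the mean of all probe sets, and MRPS18A between -0.203 and 0.0428 when single arrays were left out. With 2 arrays per group and no measured background, most changes of about 0.3 in a line would be missed. In simulated data, where a gene varied alike on every array, a change of 0.3 was found in 5.88% of changed genes in 231BrM and 7.35% in SKBrM3. These figures come from the same settings and differ by the random draw.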

Other observations

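Genes outside the mitoribosome whose values over the 8 arrays, centred within each line, were most like the mean of the members included RBIS (r = 0.995), SWSAP1 (0.995), the complex I subunit NDUFA2 (0.995), MICOS10 of the inner-membrane cristae junctions (0.994) and the mitochondrial membrane protein ROMO1 (0.993). The 10 most alike ended with FAM114A2 (0.984). In each of the 10 the highest point was doxycycline replicate 1 of 231BrM, the array that stood apart. The parts of that array and of the treatment in the likeness were not tested. The likeness is given as a description over arrays that share groups.

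Among the 261 companion genes, MET not counted, averages over both lines were called with doxycycline for 8 (limma). That is 3.07%, against 3.04% of all genes. MTRES1, which acts in mitochondrial stress and rRNA handling (0.39; limma, adjusted p = 0.0493), the glutamyl-tRNA synthetase EARS2 (0.41, 0.0421), the inner-membrane protease OMA1 (0.26, 0.0431) and the ATP synthase subunit ATP5MC2 (0.29, 0.0471) were higher. NDUFB2, a complex I subunit, was lower (-0.37; adjusted p = 0.037), as were AFG3L2 (-0.43), MTHFD2 (-0.42) and DDIT4 (-1.14). Without doxycycline replicate 1 of 231BrM these 8 averages kept their sign. In the order named they were 0.30, 0.34, 0.28, 0.24, -0.45, -0.42, -0.41 and -1.09. NDUFB2 had 9.71 and 9.41 on the doxycycline arrays of 231BrM, against 9.85 and 9.93 on the control arrays, and 9.68 and 9.64 on those labelled SKBrM3, against 10.07 and 10.08. Its doxycycline arrays lay below its controls in both lines, unlike most respiratory chain subunits, of which 58 of 70 had a positive average.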
